A study of Sus scrofa with 36 samples.

Results

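Solute carriers are membrane proteins that move amino acids, sugars, organic ions, metals, lipids and other small molecules across the plasma membrane and the membranes of organelles. The carriers of the SLC25 family, which sit mainly in the inner membrane of mitochondria, and the genes SLC40A1 and SLC10A1 were set aside. The remaining carriers were the gene names that begin with SLC and a number, or with SLCO, on a pig liver array. The array carried 201 such names on 350 probes. A name was measured where at least 1 of its probes was well above background on 6 or more of the 36 arrays, which left 161 carriers on 282 probes out of 34319 names measured in all. The 40 names left out included SLC12A1, SLC15A1, SLC2A5 and SLC2A9. Of the 161 measured carriers, 129 were above background on all 36 arrays, 91 rested on a single probe and 70 on 2 or more.

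In the liver, hepatocytes take up amino acids, bile acids and organic anions from portal blood through carriers on their blood-facing membrane, and glucose crosses that membrane in either direction. ABC transporters export bile salts and conjugates on the bile side. Zinc and iron carriers, the carriers that load nucleotide sugars and sulfate donors into the Golgi, and the fatty acid transport proteins serve hepatic metabolism and the making of secreted proteins and lipoproteins. Several solute carriers work as a pair of chains, such as the light chain SLC7A7 with the heavy chain SLC3A2.

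The animals were castrated male pigs of the Large White breed (LW), selected for growth, of the Caribbean Creole breed (CR) and of their cross (F1), 12 of each. In each breed 6 animals were held at thermoneutrality (TN, 24 °C) and 6 were killed during an exposure to heat (HS) of up to 5 days, given as 30 °C by the sample labels and as 32 °C by the growth protocol. Animals entered the climatic rooms at 11 weeks of age, were not fasted, and gave a piece of the left liver lobe. Because the HS pigs were slaughtered later than the TN pigs, an effect of heat cannot be told apart from one of the day of slaughter or of the added days of age.

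Each liver was hybridised to 1 single-colour array. Levels are log2 intensities after quantile normalization, averaged over the probes of a name, and a difference of 1 on this scale is a doubling. Levels of different carriers are not compared, because probes differ in brightness. The median signal of an array lay between 70.0 and 92.0 intensity units and no spot was saturated. On the first principal component LW TN replicates 1 and 6, F1 TN replicate 3 and F1 HS replicates 1 and 2 lay apart from the other arrays of their breed, the LW pair towards CR and the F1 arrays towards LW. They are kept under their labels, and a call of a named carrier that is lost without these 5 arrays is given as such beside it. Because these arrays were picked for lying away from their own breed, leaving them out can by itself widen the differences of CR and F1 from LW. A call gained without them is therefore no independent support. Defining hepatocyte genes (6 measured, among them ALB and TTR) had a summed log2 level of 19.44 to 19.74 in all animals.

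In the comparison of Creole with Large White liver, 39 of the 161 carriers (24.2%) passed the threshold of 0.05 on the adjusted p, against 25.2% of all 34319 names, so carriers were called about as often as other genes. Of these, 16 were higher in CR (9.94%, against 14.2% of all names) and 23 lower (14.3%, against 11% of all names). The median log2 difference was -0.02 over the carriers and 0.01 over all names, and single carriers ran from -0.99 to 1.44. The cationic amino acid transporter SLC7A2 and the organic anion transporter SLCO2B1 stood at the ends of this range. Without the 5 arrays that stood apart the count was 50 (31.1%, against 31.6% of all names). No carrier had groups that did not overlap between CR and LW, which was so for 0.475% of all names.

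SLC7A2 encodes CAT2, which carries arginine and lysine into cells, and lies at chr17:5191973-5271849 (Sscrofa11.1). Its log2 level in LW ran from 9.78 through a median of 10.74 to 11.77, in CR from 11.02 through 12.54 to 13.19, and in F1 from 11.23 through 12.25 to 13.47. All 12 CR and all 12 F1 animals lay above the LW mean, although the lowest of them fell within the LW range. The log2 level was 1.44 higher in CR than in LW (SE 0.261, adjusted p = 0.00014), a 2.71-fold difference, and 1.34 higher in F1 than in LW (SE 0.261, adjusted p = 0.00123). The CR and LW means differed by 0.85 among TN and by 2.03 among HS animals (log2 difference).

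Both probes of SLC7A2 are shown here because they cover the same stretch of the transcript and differ by a single base, in capitals. Each is 60 bases long. The stretch shown is bases 14 to 38, counted from 1 at the first base of the probe as the array file writes it, and the difference is G26A with the base of the brighter probe first. The files give these probes no genome position, so the exon they lie in was not determined.

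SLC7A2 brighter probe: tcccaagcctccGtgtttgaaaaat

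SLC7A2 dimmer probe: tcccaagcctccAtgtttgaaaaat

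The log2 difference between CR and LW was 1.06 (SE 0.27) at the brighter probe and 1.82 (SE 0.277) at the dimmer probe, and that between F1 and LW was 0.94 and 1.73. The direction was thus shared by both probes and the size was not. The gap between the probes, brighter minus dimmer on the log2 scale, ran from 1.07 through a median of 1.51 to 1.62 in LW, from 0.28 through 0.43 to 1.18 in CR, and from -0.59 through 0.38 to 1.29 in F1. The gap was thus smaller in most CR and F1 animals than in LW, with means of 1.41 in LW, 0.64 in CR and 0.61 in F1. These gaps were looked at after the values of the probes were seen and are given with no test. Whether the base that separates the probes differs between these animals was not tested.

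**Figure D1:**
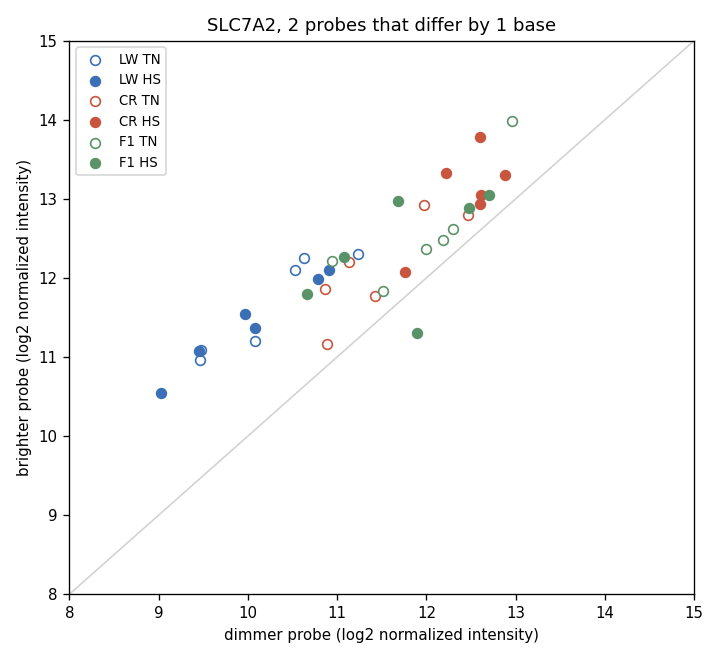
The log2 normalized intensity of the brighter SLC7A2 probe (vertical) against that of the dimmer probe (horizontal), 1 point per animal and coloured by breed. LW animals keep a gap of 1.07 to 1.62 between the probes, while the gap of CR and F1 animals reaches down to 0.28 and -0.59.

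Among the 32 measured amino acid and peptide carriers, 2 were higher and 7 lower in CR than in LW, with a median log2 difference of -0.06. Of all names, 14.2% were higher and 11% lower. The counts of this family and of those below are small and are given with no test. Beside SLC7A2, the higher one was SLC6A11, a transporter of the amino acid transmitter GABA (chr13:66998113-67115918). Its log2 level ran from 8.41 through 9.77 to 9.92 in LW and from 9.83 through 10.29 to 10.92 in CR, a difference of 0.78 (SE 0.168, adjusted p = 0.000869). Only the lowest CR animal reached into the LW range, and the 2 lowest LW animals were among the arrays that stood apart. Without those arrays the log2 difference was 0.53 (adjusted p = 0.00129).

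The 7 lower ones were SLC7A8, SLC1A5, SLC7A1, SLC6A20, SLC15A4, SLC15A2 and SLC17A2. The last is counted here by its family number, since the SLC17 family holds the vesicular glutamate transporters, but it is itself known as a sodium phosphate and organic anion transporter. SLC7A8, the light chain of a neutral amino acid exchanger, ran from 5.51 through 5.94 to 6.29 in LW and from 5.29 through 5.53 to 5.73 in CR on the log2 scale, and no CR animal exceeded the LW mean. Its log2 difference was -0.40 (SE 0.0669, adjusted p = 5.43e-05), at a low signal that was above background on 34 of 36 arrays. SLC1A5, a glutamine and neutral amino acid exchanger, had a log2 level of 8.81 to 9.42 in LW and 8.56 to 8.95 in CR (log2 difference -0.35, SE 0.0741, adjusted p = 0.000654). SLC7A1, which encodes CAT1 and carries the same cationic amino acids as SLC7A2, was lower in CR with a log2 difference of -0.29 (SE 0.0914, adjusted p = 0.0191). The peptide carriers SLC15A4 and SLC15A2 were both lower by a log2 difference of -0.21.

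Of the 16 carriers of organic anions, cations and bile acids, 1 was higher and 4 lower in CR (14.2% and 11% of all names). SLCO2B1, which encodes an organic anion transporter for steroid sulfates and many drugs on the blood side of the hepatocyte (chr9:9433978-9474248), ran from 14.12 through 14.53 to 14.91 in LW and from 12.74 through 13.55 to 14.41 in CR on the log2 scale. F1 animals lay between, from 13.40 through 14.10 to 14.64. All 12 CR animals were below the LW mean. The log2 difference was -0.99 (SE 0.161, adjusted p = 3.35e-05), a 1.99-fold lower level, and its probes gave -0.65 and -1.33. SLC22A7, an organic anion transporter, was lower in CR by a log2 difference of -0.48 (SE 0.136, adjusted p = 0.00934), but its probes gave -0.28 and -0.67, and with the brighter probe alone the call was lost (adjusted p = 0.172). SLC22A17 and SLC22A24 were lower at -0.38 and -0.32, while SLC22A2, an organic cation transporter, was higher with a log2 difference of 0.32 (SE 0.0722, adjusted p = 0.00134).

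Of 21 sugar carriers, 5 were higher and 1 lower in CR (14.2% and 11% of all names), with a median log2 difference of 0.02. The sodium-coupled inositol transporter SLC5A11 ran from 5.31 through 5.67 to 6.22 in LW and from 5.79 through 6.25 to 6.98 in CR on the log2 scale, with every CR animal above the LW mean (log2 difference 0.68, SE 0.123, adjusted p = 0.000137). SLC5A9, a sodium-coupled sugar transporter, was 0.30 higher in CR on the log2 scale (SE 0.0618, adjusted p = 0.000526). SLC2A2, which encodes GLUT2, the main glucose transporter of hepatocytes, was 0.32 higher on the log2 scale (SE 0.113, adjusted p = 0.0366). This call was lost on leaving out any of 10 single animals (adjusted p up to 0.0737). It was also lost with the processed signal and with the authors' table (adjusted p up to 0.0632). SLC45A2, best known from melanin-producing cells, was 0.51 higher (SE 0.181, adjusted p = 0.0345) with a wide CR range of 7.93 to 10.09 on the log2 scale, and lost the call without any of 6 single animals. Its higher mean rested on 5 CR animals at 9.34 or above, while the other 7 CR animals, at 7.93 to 8.79, lay about where LW did (8.13 to 8.64). SLC2A11 was 0.17 higher and SLC45A3 was the lower one, with a log2 difference of -0.34. SLC37A4, the glucose-6-phosphate carrier of the endoplasmic reticulum, did not pass the threshold as a mean of its probes, although its brighter probe tested singly was 0.26 higher in CR on the log2 scale (adjusted p = 0.000843).

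**Figure D2:**
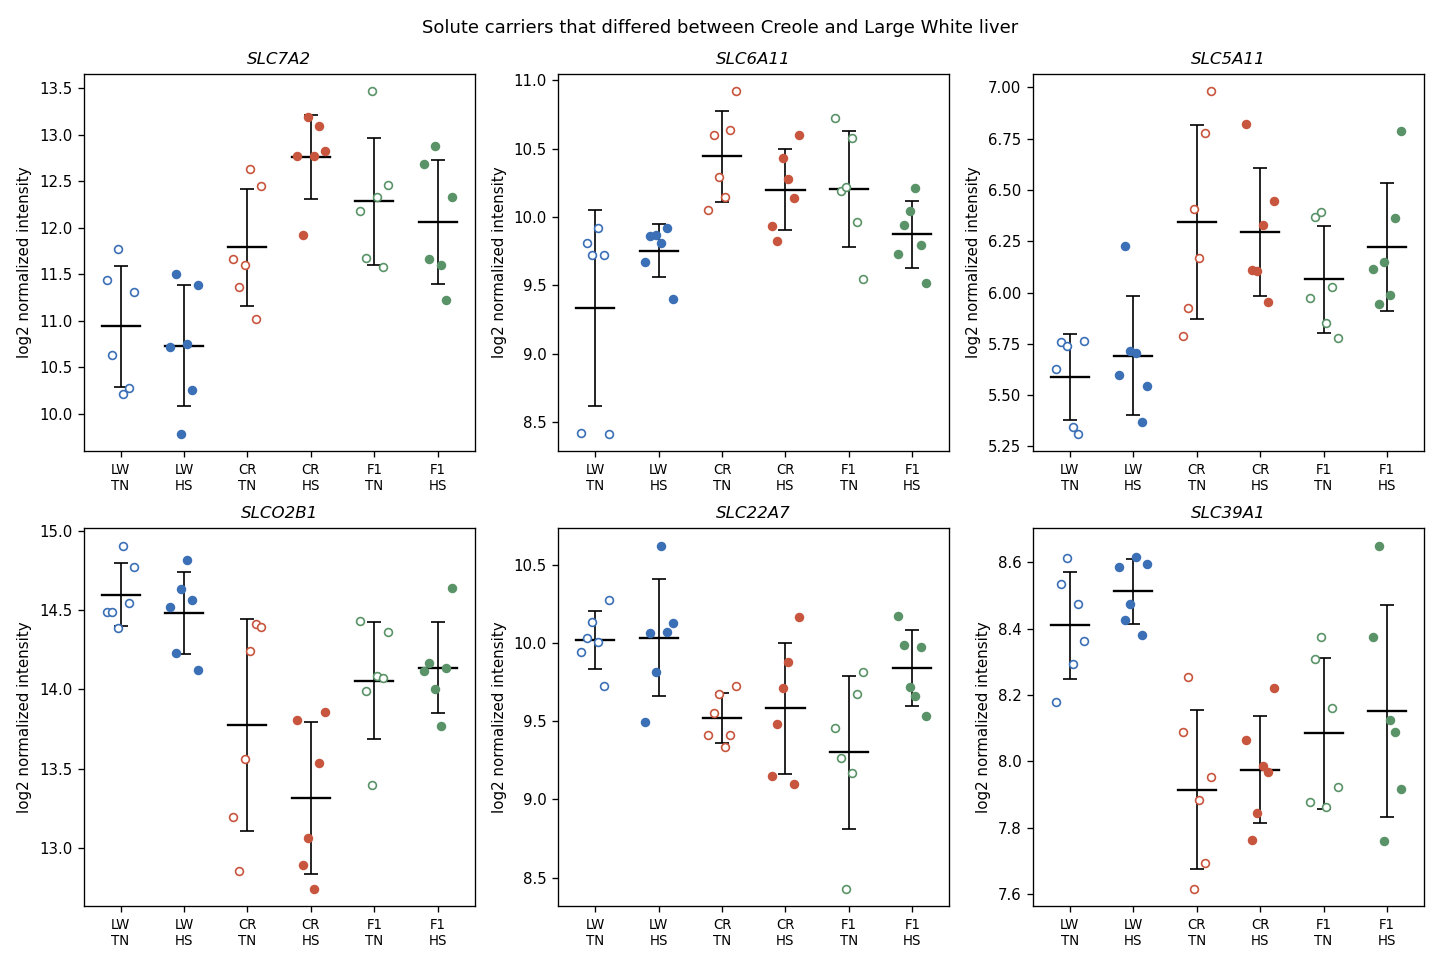
The log2 normalized intensity of 6 carriers in each animal by breed and temperature (open TN, filled HS), with the mean ± SD of each group of 6 as black lines. CR animals sit above the LW mean for SLC7A2, SLC6A11 and SLC5A11 and below it for SLCO2B1 and SLC39A1, with ranges that overlap in every panel.

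The 25 metal carriers had 2 higher and 1 lower in CR (14.2% and 11% of all names). The plasma membrane zinc importer SLC39A1 (chr4:95729480-95733824) ran from 8.18 through 8.47 to 8.62 in LW and from 7.62 through 7.96 to 8.26 in CR on the log2 scale, and all 12 CR animals lay below the LW mean. The log2 difference was -0.52 (SE 0.0831, adjusted p = 3.13e-05), from 1 probe. The entry of the same name in mixed case, slc39a1, was lower by less, at -0.28 (adjusted p = 0.0022). SLC39A14, which takes up zinc, manganese and iron not bound to transferrin, was 0.23 higher on the log2 scale (SE 0.0704, adjusted p = 0.0135), with 2 of its 3 probes in that direction. The entry of the same name in mixed case, slc39a14, had -0.07 (adjusted p = 0.567). With names read in any case the SLC39A14 call was lost (adjusted p = 0.0517). The vesicular zinc carrier SLC30A2 was 0.28 higher.

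Among the 16 nucleoside and nucleotide sugar carriers, 2 were higher and 3 lower in CR (14.2% and 11% of all names). Their median log2 difference was -0.11. SLC35B2, which brings the sulfate donor PAPS into the Golgi, ran from 10.57 through 10.76 to 11 in LW and from 10.20 through 10.42 to 10.71 in CR, a log2 difference of -0.33 (SE 0.0545, adjusted p = 4.92e-05) with no CR animal above the LW mean. SLC35F3, a putative thiamine transporter, was nearly flat in CR, from 5.46 through 5.54 to 5.69 on the log2 scale. In LW it ran from 5.43 through 6.23 to 6.99, with no animal between 5.59 and 6.17. Its log2 difference of -0.50 (SE 0.151, adjusted p = 0.0131) was -0.09 among TN and -0.91 among HS animals. The nucleotide sugar carriers SLC35D1 and SLC35D2 were higher at 0.42 and 0.26, and SLC35F5 was lower at -0.23.

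The calls in the other families follow, beside 25.2% of all names called between CR and LW. Of 21 acid-base and ion carriers, the anion exchanger SLC26A6 was 0.52 higher (log2 difference, SE 0.148, adjusted p = 0.00848), and the potassium-chloride cotransporter SLC12A4 and the bicarbonate transporter family member SLC4A9 were lower at -0.74 (SE 0.202, adjusted p = 0.00638) and -0.23. SLC12A4 varied widely, from 8.65 through 9.47 to 9.94 in LW and from 7.38 through 8.89 to 9.74 in CR on the log2 scale. Of 10 vitamin, phosphate and other carriers, the phosphate importer SLC20A1 and the folate transporter SLC46A1 were higher by log2 differences of 0.42 and 0.36 (adjusted p = 0.0102 and 0.00254). The mixed-case entry Slc46a1 had 0.09 without passing (adjusted p = 0.41). In the 7 fatty acid and lipid carriers, the choline transporter family member SLC44A2 and the fatty acid transport protein family member SLC27A3 were lower at -0.35 and -0.19, with a family median of -0.14, and the very long chain fatty acid carrier SLC27A2 had -0.14 without passing (adjusted p = 0.508). In the 9 carboxylate carriers, SLC16A5 and SLC16A7 were lower at -0.28 and -0.25, and the lactate carrier SLC16A1, the aromatic amino acid carrier SLC16A10 and the citrate transporter SLC13A5 were not called, with log2 differences of -0.11, 0.09 and 0.04. Without the 5 arrays SLC16A1 passed (log2 difference -0.15, adjusted p = 0.045).

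Some names of the SLC series are not carriers. SLC9A3R1, a scaffold that tethers membrane proteins, was higher in CR at 0.23, and SLC7A6OS, the gene opposite SLC7A6, was lower at -0.21 (log2 differences, adjusted p = 0.0417 and 0.0499).

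Of 34 pairs of neighbouring carriers within 1000 kb of each other, 5 (14.7%) had both genes called between CR and LW, against 6.62% of 55344 such pairs among 7795 named genes with a position, which are described and not tested. SLC22A17 and SLC7A8, 114 kb apart on chromosome 7, and SLC22A7 and SLC35B2, 915 kb apart on the same chromosome, were lower in CR at both genes. SLC39A1 with SLC27A3 on chromosome 4 and SLC12A4 with SLC7A6OS on chromosome 6 were likewise lower at both, whereas SLC16A5 and SLC9A3R1 on chromosome 12 differed in opposite directions. Of the 14 carriers measured on chromosome 7, 5 were lower and 0 higher in CR, against 16.2% lower and 10.9% higher among 617 named genes of that chromosome.

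Some markers of other liver cells differed with breed, and are set beside the 11% of all names that were lower in CR than in LW. Of 6 measured macrophage genes 4 were lower in CR than in LW, with CD163 at -1.31 and VSIG4 at -0.91 (log2 differences), and the summed log2 level of the list ran from 13.77 to 14.68 in LW, 13.15 to 13.78 in CR and 13.17 to 14.26 in F1. All 4 measured T cell and NK cell genes and 2 of 4 endothelial genes, with CLEC4G at -0.95, were lower in CR too, as were 1 of 5 stellate cell genes and 1 of 6 hepatocyte genes. None of the 4 bile duct or 3 red cell genes was called. No marker was at 0, since an array gives each probe a signal. In bulk liver, fewer cells of a type and less RNA per cell cannot be told apart, and the part of these cells in the lower carriers was not tested. The summed hepatocyte level was 19.52 to 19.74 in LW and 19.44 to 19.68 in CR.

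**Figure D3:**
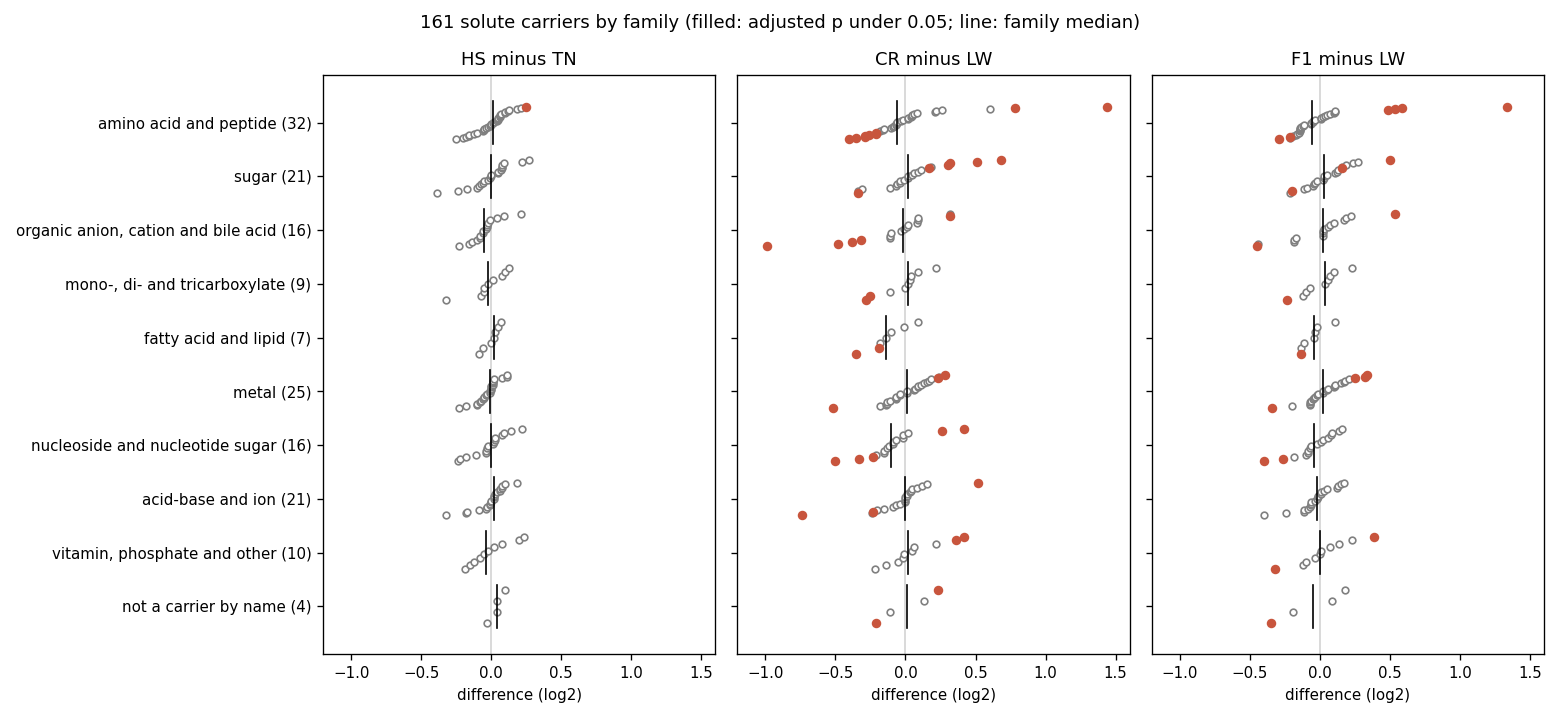
The log2 difference of each of the 161 carriers, by family, in the comparisons named above each panel. Filled points passed an adjusted p of 0.05 and the short lines are family medians. Between CR and LW the family medians lie from -0.14 to 0.02, and SLC7A2 among the amino acid carriers and SLCO2B1 among the organic anion carriers lie farthest out between CR and LW.

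The cross was compared with each parent breed and with their mean. Between F1 and LW, 22 of 161 carriers (13.7%) were called, against 16.5% of all names, 11 higher and 11 lower (each 6.83%, against 9.2% and 7.33% of all names). Without the 5 arrays that stood apart the count was 36 (22.4%), against 30.1% of all names in the same fit. F1 and LW share the LW animals with the comparison of CR and LW, so the 2 sets of differences are not independent, and the values are given side by side.

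Among amino acid carriers, SLC38A4, a liver transporter of neutral amino acids (chr5:77411610-77489542), had a log2 level from 9.86 through 10.40 to 11.43 in LW, with a median of 10.70 and a highest value of 11.08 in CR and from 10.39 through 10.91 to 12.16 in F1. The log2 difference between F1 and LW was 0.59 (SE 0.161, adjusted p = 0.0115), with 11 of 12 F1 animals above the LW mean, while that between CR and LW was 0.26 (adjusted p = 0.249). Without the 5 arrays these values were 0.80 (adjusted p = 0.00035) and 0.41 (adjusted p = 0.034), and F1 also exceeded the mean of both parents by 0.59 on the log2 scale (adjusted p = 0.00459). In that fit 15.1% of all names were called against the parental mean, and 0.644% with all arrays. SLC3A1, the heavy chain of the cystine and dibasic amino acid transporter, was 0.54 higher in F1 than in LW on the log2 scale (SE 0.175, adjusted p = 0.0306). SLC6A11 was 0.49 higher (adjusted p = 0.039), a call that was lost without the 5 arrays (0.26, adjusted p = 0.14). SLC7A8 and SLC1A5 were lower in F1 at -0.29 and -0.21 on the log2 scale (adjusted p = 0.00415 and 0.0432).

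SLCO1B1, the organic anion transporter of the hepatocyte that clears bilirubin and statins from blood, ran from 12.36 through 13.22 to 14.00 in LW and from 13.15 through 13.65 to 14.46 in F1 on the log2 scale, a difference of 0.54 (SE 0.163, adjusted p = 0.0202). SLC22A7 was lower in F1 than in LW by a log2 difference of -0.45 (SE 0.136, adjusted p = 0.0201). Its probes gave -0.32 and -0.59, and with the brighter probe alone the call was lost (adjusted p = 0.147). SLCO2B1, lower in CR, did not pass the threshold in F1 against LW (log2 difference -0.44, adjusted p = 0.0539) or in F1 against CR (0.55, adjusted p = 0.0799).

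Of the metal carriers, SLC11A1, SLC39A14 and SLC39A4 were higher in F1 than in LW at 0.34, 0.32 and 0.25, and SLC39A1 was lower at -0.34 (log2 differences). The mixed-case entries slc39a14 and slc39a1 were not called between F1 and LW, at -0.05 and -0.07 (adjusted p = 0.727 and 0.546). The call of SLC39A4 was lost without the 5 arrays (0.24, adjusted p = 0.0676). SLC11A1 exports divalent metals from the phagosomes of macrophages. It was higher in F1 than in LW while 4 of the other 5 macrophage genes were lower, against 7.33% of all names lower. Further carriers higher in F1 were SLC5A11 at 0.50, SLC20A1 at 0.39 and the sugar transporter family member SLC2A11 at 0.16. The lower ones included SLC35B2, SLC7A6OS, the renal-type phosphate transporter SLC34A1 at -0.32 (adjusted p = 0.0505 without the 5 arrays), the inositol transporter SLC2A13 at -0.20 and the fatty acid transporter SLC27A1 at -0.13 (adjusted p = 0.117 without the 5 arrays).

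Between F1 and CR, 4 carriers were called (2.48%, against 1.39% of all names). SLC27A1 ran from 6.95 through 7.12 to 7.29 in CR and from 6.75 through 6.90 to 7.03 in F1 on the log2 scale, a difference of -0.22 (SE 0.0432, adjusted p = 0.00423). SLC22A2 was lower in F1 at -0.29 (adjusted p = 0.0307) and SLC5A9 at -0.27 (adjusted p = 0.0187), while SLC44A2 was higher at 0.22 (adjusted p = 0.0381). The calls of SLC22A2 and SLC44A2 were lost on leaving out any of 8 and of 12 single animals, and that of SLC44A2 also without the 5 arrays (adjusted p = 0.06). That of SLC22A2 was also lost with the processed signal and with no filter (adjusted p up to 0.644). The call of SLC27A1 against CR was lost with the processed signal (adjusted p = 0.0542).

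Against the mean of the parent breeds, F1 differed in 2 carriers (1.24%, against 0.644% of all names), and without the 5 arrays that stood apart in 17 (10.6%, against 15.1% of all names in the same fit). SLC35B2 ran from 10.23 through 10.31 to 10.63 in F1 on the log2 scale, a difference from the parental mean of -0.24 (SE 0.0472, adjusted p = 0.0118). Against LW alone it was -0.40 (SE 0.0545, adjusted p = 3.39e-05), with all 4 of its probes called and no F1 animal above the LW mean. SLC35B2 has probes that overlap in sequence, so its probes are not fully independent. As a mean of its probes, SLC27A1 lay below the parental mean by a log2 difference of -0.18 (SE 0.0374, adjusted p = 0.0164). That mean was lower than in either parent breed, with 11 of 12 F1 animals below the LW mean. No single probe was called against both breeds. The brighter probe gave -0.33 against CR and -0.05 against LW (adjusted p = 0.000632 and 0.519). The dimmer probe gave -0.12 and -0.21 (adjusted p = 0.485 and 0.0236). The call against the parental mean was lost with the processed signal and with no filter (adjusted p up to 0.0834). Without the 5 arrays the difference of SLC27A1 from LW was -0.10 (adjusted p = 0.117).

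**Figure D4:**
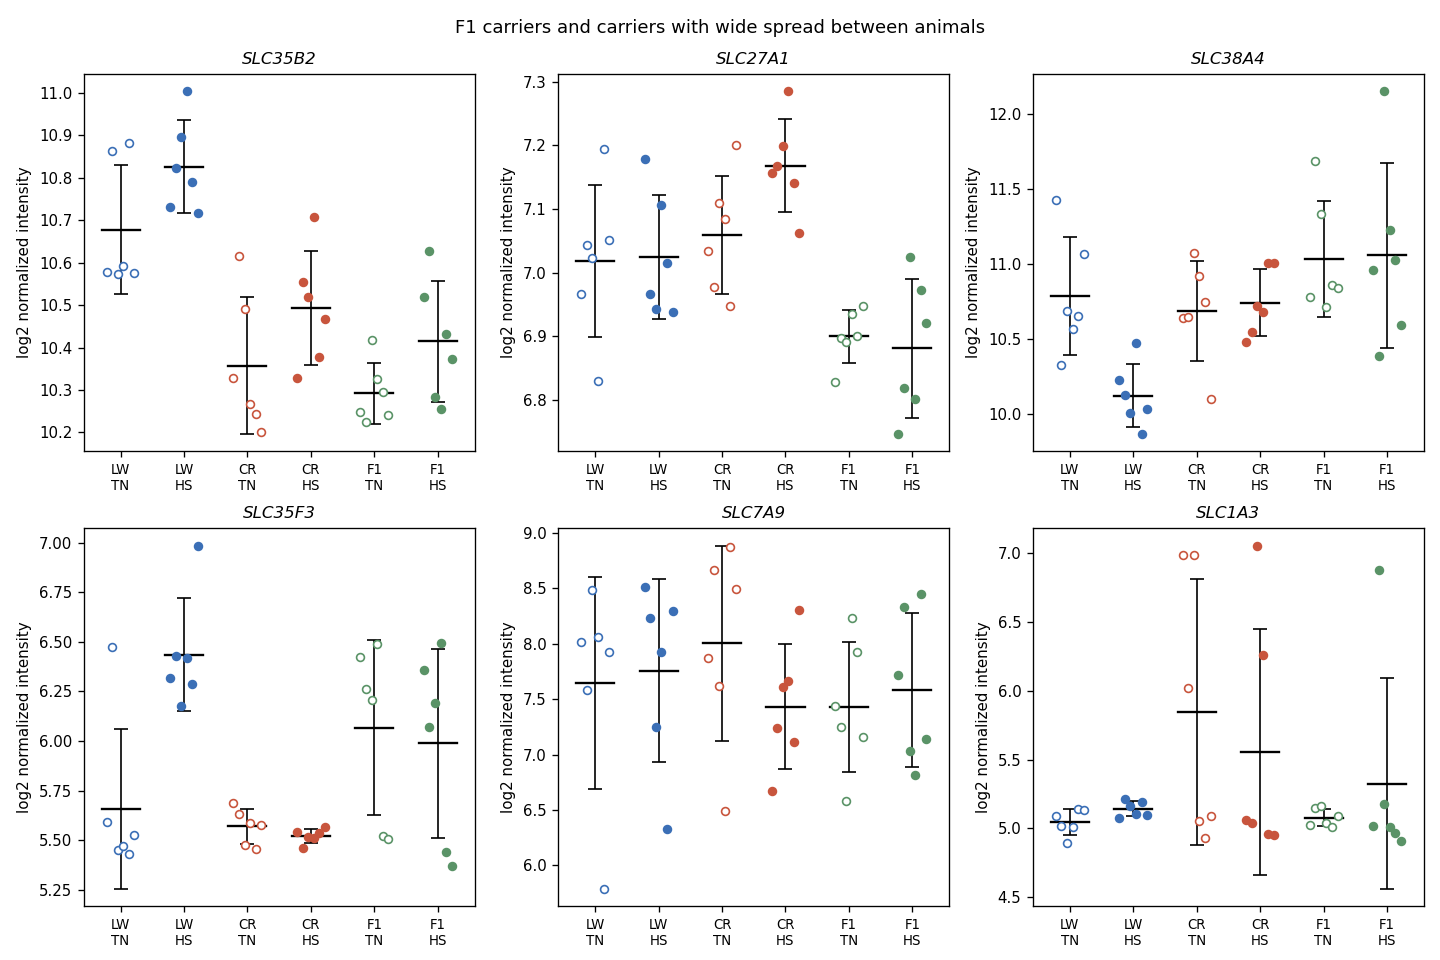
The log2 normalized intensity of 6 carriers in each animal by breed and temperature (open TN, filled HS), with the mean ± SD of each group of 6 as black lines. SLC35B2 and SLC27A1 have low F1 values, SLC38A4 has high ones, SLC35F3 is flat in CR, and SLC7A9 spreads widely within most groups and SLC1A3 within the CR groups and F1 HS.

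The comparison of HS with TN livers asked which carriers changed with heat. Only SLC7A7 passed the threshold, 1 of 161 carriers (0.621%), against 0.839% of all names. At an unadjusted p under 0.05 there were 32 carriers (19.9%), against 12.9% of all names. The median log2 difference was 0.0 over the carriers and over all names, and single carriers ran from -0.39 to 0.27.

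SLC7A7 encodes y+LAT1, which exports cationic amino acids in exchange for neutral ones and sodium (chr7:76195774-76235406). Its log2 level ran from 10.23 through 10.51 to 10.84 in TN and from 10.42 through 10.75 to 11.17 in HS, ranges that overlapped widely. It rose by 0.25 on the log2 scale (SE 0.0625, adjusted p = 0.0485), a 1.19-fold difference, with 16 of 18 HS animals above the TN mean of their breed. All 4 probes were higher in HS, at 0.24, 0.19, 0.25 and 0.30, and the last passed when probes were tested singly (adjusted p = 0.0131). By breed the log2 difference came to 0.31 for LW, 0.07 for CR and 0.36 for F1, and within the 5 slides it lay between 0.11 and 0.36. On slide 1 the TN animals were all LW and the HS animals CR and F1. The call was near the threshold and remained on leaving out 11 of 36 single animals. It was lost with slide as a fixed block (adjusted p = 0.0524), the processed signal (0.0977), the authors' table (0.058), no filter (0.0624), the brightest probe (0.0916), a trended robust prior (0.0509) and no breed term (0.055). Without the 5 arrays the log2 difference was 0.19 (adjusted p = 0.135). The level of its heavy chain partner SLC3A2 was 0.16 lower in HS without passing the threshold (log2 difference -0.16, adjusted p = 0.26).

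The next carriers by p did not pass. SLC38A7, a glutamine carrier of the lysosome, ran from 6.17 through 6.68 to 7.0 in TN and from 6.18 through 6.38 to 6.85 in HS on the log2 scale, a difference of -0.25 (SE 0.0698, adjusted p = 0.0672) with 2 of 18 HS animals above the TN mean of their breed. SLC35C2, a Golgi carrier linked to fucosylation, had a log2 difference of -0.24 (adjusted p = 0.0961), and without the 5 arrays -0.30 (adjusted p = 0.0323). The Golgi zinc carrier SLC30A5 had -0.23 (adjusted p = 0.149), the monocarboxylate carrier SLC16A6 -0.32 (adjusted p = 0.155) and SLC26A6 -0.32 (adjusted p = 0.201). The log2 differences of SLC35B2 and SLC17A2 were 0.14 and 0.21 (adjusted p = 0.136 and 0.145), and that of the bicarbonate transporter SLC4A4 was -0.17 (adjusted p = 0.218). SLC37A4 had -0.24 (adjusted p = 0.16), and its probes differed, with -0.02 at the brighter and -0.46 at the dimmer. None of the macrophage, T cell, endothelial, hepatocyte, stellate, bile duct or red cell markers was called between HS and TN.

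**Figure D5:**
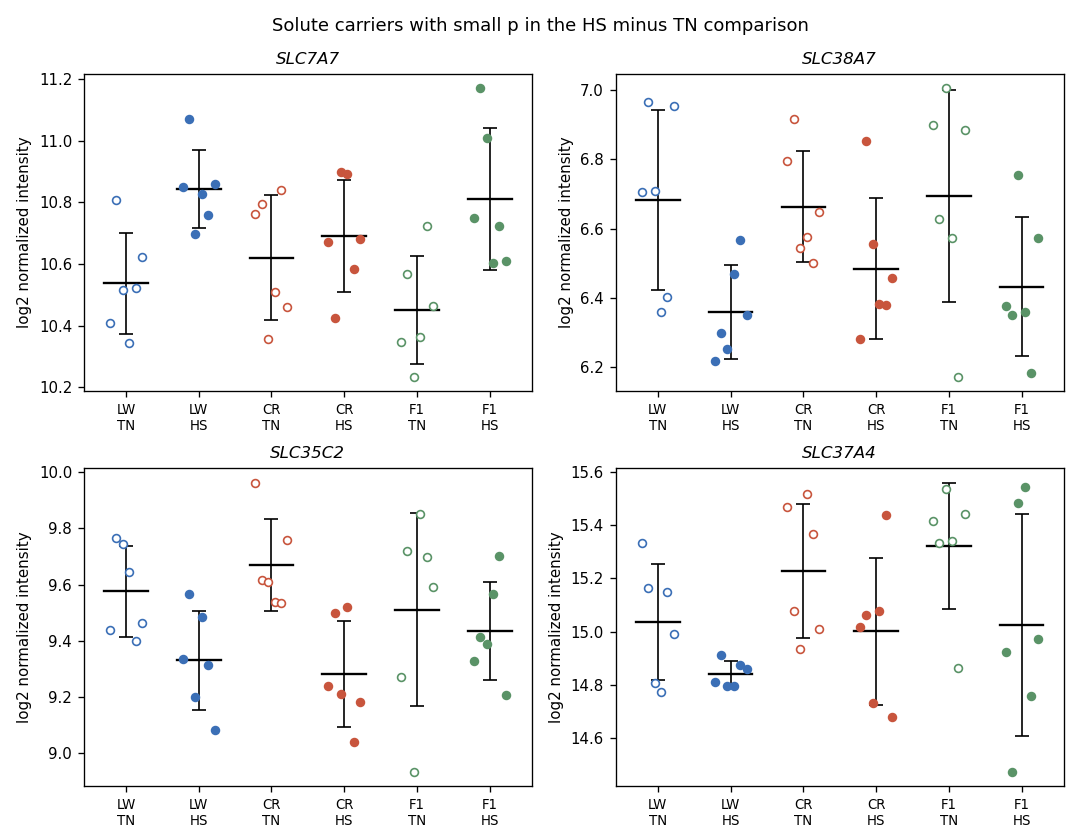
The log2 normalized intensity of 4 carriers with small p between HS and TN, in each animal by breed and temperature (open TN, filled HS), with the mean ± SD of each group of 6 as black lines. SLC7A7 is higher in HS in LW and F1 with little difference in CR, and the other panels show lower HS means that did not pass the threshold.

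No carrier passed the test of whether the effect of heat differed between breeds, nor did any of the 34319 names (0.0%), although 7 carriers and 1297 names (3.78%) had an unadjusted p under 0.05 in limma's moderated F test. The smallest unadjusted p values were those of SLC35F3 at 0.00306, the insulin-responsive glucose transporter SLC2A4 at 0.00756, the borate transporter family member SLC4A11 at 0.0206, SLC7A2 at 0.0272 and SLC38A4 at 0.0359, all with an adjusted p of 0.999. SLC35F3 had a log2 difference between HS and TN of 0.78 in LW (SE 0.185), -0.05 in CR and -0.08 in F1. Its log2 levels fell into a low set, up to 5.69, and a high set, from 6.07, with no animal between. All LW HS animals were in the high set and all CR animals in the low set. Among LW TN animals only replicate 2 was high (6.47), and both F1 groups held animals of each set. The log2 differences between HS and TN in LW, CR and F1 were -0.21, 0.97 and -0.22 for SLC7A2 (SE 0.342). For SLC38A4 they were -0.67, 0.05 and 0.02 (SE 0.212). Tested within a breed, no carrier was called in LW, CR or F1, against 0.0%, 0.0495% and 0.00874% of all names, and at an unadjusted p under 0.05 there were 8, 10 and 26 carriers, against 5.06%, 7.32% and 9.27% of all names.

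Animals of the same group differed more for some carriers than for others. The median residual SD was 0.204 on the log2 scale over the 161 carriers and 0.184 over all names, and the widest were SLC7A9 (0.765), SLC7A2 (0.626), SLC1A3 (0.623), SLC2A8 (0.521) and SLC12A4 (0.512). SLC7A9, the light chain that pairs with SLC3A1, ran from 5.79 through 7.97 to 8.51 in LW and from 6.49 through 7.64 to 8.87 in CR on the log2 scale, and no breed or temperature difference was called. The glutamate transporter SLC1A3 fell into a low set of 30 animals between 4.89 and 5.21 and a high set of 6 animals between 6.02 and 7.06, of which 0 were LW, 5 CR and 1 F1. The high set held both TN and HS animals, with 3 TN and 2 HS among the CR. The same 6 animals had the 6 highest log2 levels of SLC45A2, from 9.34 to 10.09, against 7.93 to 9.10 in the other 30, a match noticed after the values were seen.

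Genes that work with these carriers were set beside them, with no test over a list. Of all names, 14.2% were higher and 11% lower in CR than in LW, and 0.839% were called between HS and TN. Of 23 ABC transporters, 5 were higher and 1 was lower in CR than in LW, with the bile salt export pump ABCB11 at 0.45 and the sterol exporter ABCG8 at -0.25, and the drug exporter ABCB1 was lower in HS than in TN (log2 difference -0.59, adjusted p = 0.0256). Of 24 mitochondrial SLC25 carriers, 3 were higher and 5 lower in CR, with the ornithine carrier SLC25A15 at 0.61 and the oxoglutarate carrier SLC25A11 at -0.41. Of 7 chaperones and scaffolds, PDZK1IP1, which partners sugar transporters, was higher at 0.97 and BSG, the chaperone of monocarboxylate carriers, lower at -0.21. Of 17 regulators and response genes only MLXIPL, which encodes the glucose-responsive factor ChREBP, was called between CR and LW, at 0.58 (adjusted p = 0.0013), and it was 0.41 higher in F1 than in LW (log2 differences, adjusted p = 0.0282).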

How the data were processed

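Liver RNA of 36 pigs was measured on Agilent single-colour 60-base arrays, 1 array per animal. The authors deposited scanner tables of spot intensity (Agilent Feature Extraction 10.10.1.1), not normalized between arrays, and a table of quantile-normalized log2 values that was used here as an alternative. Groups came from the labels, and replicate numbers, given in accession order, only name animals. Median signals were log2 transformed and quantile normalized, 107 non-uniform spots were set missing, probes well above background on 6 or more arrays were kept (44796 of 60305, 74.3%), and kept probes were averaged per gene name. The arrays lay on 5 slides, each scanned as 1 batch. The highest correlation between arrays was 0.9934.

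The comparisons used limma 3.58.1 under R 4.3.3, with two-sided moderated tests and p-values adjusted by Benjamini-Hochberg across the 34319 names (threshold 0.05). The model held breed and temperature; interaction and within-breed contrasts used the 6 group means. Random effects of pen, slaughter day and parents, part of the study's model, are not in the labels. The study reports blocks of littermates within each breed and pens of a single breed. Animals of a pen were slaughtered at the same temperature, and each day of slaughter belonged to a single temperature. Animals were treated here as independent, so the SE and adjusted p of breed, heat, within-breed and interaction comparisons may be too small. Named carriers were those with the largest called differences of 1 sign at both temperatures (6 each way for CR against LW, 3 for F1 against LW), the 10 smallest p for HS against TN, the 5 smallest for the interaction, and a list of carriers known in liver. Others were named after their values were seen. The members and lists were chosen with earlier results of these data known. Of 161 names, 158 were found in the RefSeq gene table of Sscrofa11.1, which gave coordinates. The script was tested on simulated data. The alternatives were other signals, filters, probe summaries, blocks, weights and variance priors, and leaving out arrays. The number of arrays limits the precision.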

Additional observations from a re-analysis of the deposited data

Results flagged for a closer look

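In a group of 6 animals, a single animal was set apart where its gap to the nearest of the others exceeded 0.625 of the range of the group. This was so in 10 of 222 groups of 37 named carriers, and chance gives about 1 in 20, or 11.1. For SLC35F3, LW TN replicate 2 was high (gap 0.843 of the range, 6.47 against 5.59 for the next animal) and LW HS replicate 6 was high (0.686, 6.99 against 6.43). SLC7A2 was low in CR HS replicate 2 (0.669, 11.92 against 12.77). SLC37A4 was low in F1 TN replicate 5 (0.695, 14.86 against 15.33) and SLC44A2 in F1 TN replicate 4 (0.662, 11.23 against 11.44). High values were those of SLC39A14 in CR HS replicate 5 (0.727, 11.81 against 11.43), SLC3A2 in F1 TN replicate 3 (0.652, 7.16 against 6.75) and SLC45A2 in F1 HS replicate 2 (0.67, 9.55 against 8.78). SLC4A11 was high in CR TN replicate 5 (0.707, 7.0 against 6.57) and SLC5A9 in LW TN replicate 6 (0.656, 6.31 against 5.94). All levels are on the log2 scale. F1 TN replicate 3, F1 HS replicate 2 and LW TN replicate 6 are among the 5 arrays that stood apart on the first principal component.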

How the results depend on the processing

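The count of carriers called between HS and TN, 1 at the reported setting, was 0 with the processed signal, the authors' table, no filter, the brightest probe, slide as a fixed block, a trended robust prior or no breed term, 2 with normexp or without the 5 arrays that stood apart, and 0 to 2 without single animals. The CR and LW count of 39 was 59 with every probe tested singly and 34 to 42 without single animals. The F1 and LW count of 22 was 38 with every probe singly, 36 without the 5 arrays and 13 to 30 without single animals, the 13 without F1 HS replicate 4. The F1 and CR count of 4 was 2 to 5 without single animals, 2 without F1 TN replicates 1 and 6, F1 HS replicates 3 and 5 or CR HS replicate 4. Against the parental mean the count of 2 was 1 with the processed signal or no filter, 6 with array weights, 17 without the 5 arrays, and 2 to 6 without single animals, 6 without F1 HS replicate 2. The interaction and within-breed counts were 0 in every alternative run, 0 to 0 without single animals. The causes were not tested. No paired analysis was possible because the labels give no replicate numbers. The setting that reads names in any case was chosen after seeing the data.

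Of 27 called differences of named carriers, 5 turned within 1 or more slides, given as log2 differences with no test: SLC26A6 (-0.18, slide 1), SLC45A2 (-0.05, slide 1, and -0.13, slide 5) and SLC20A1 (-0.01, slide 5) for CR against LW, SLC12A4 (0.07, slide 4), and SLC44A2 for F1 against CR (-0.03, slide 1). Of 27 that were not called, 20 turned within 1 or more slides. Slide 1 held LW animals only at TN, and a single CR and a single F1 animal, both at HS. Breed and temperature cannot be told apart within that slide. Between HS and TN, SLC16A1 turned to -0.01 (brightest probe), -0.06 (every probe), -0.01 (array weights) and -0.02 (without the 5 arrays), and SLC39A14 to -0.01 (processed signal), -0.01 (authors' table) and -0.02 (names in any case). Without single animals SLC13A5 between CR and LW ran from -0.05 to 0.08, SLC16A1 between HS and TN from -0.01 to 0.02 and SLC39A14 from -0.01 to 0.03. SLC45A2 lost its call between CR and LW without CR TN replicates 1, 2 or 3, CR HS replicates 3 or 4, or LW HS replicate 5, with an adjusted p up to 0.0755. Arrays with a median signal of 70.0 to 92.0 limit what dim carriers can show: 8 of the 161 were above background on fewer than 18 arrays.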

Other observations

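The array also carried 39 carrier names written in mixed case, of which 31 were measured and 14 repeat a carrier named in capitals. Of these 31 names, 6 were called between CR and LW, against 25.2% of all names. Between F1 and LW 3 were called, against 16.5% of all names, and 0 in the other comparisons. Slc19a1, named for the reduced folate carrier, had a log2 difference of -0.39 between CR and LW (adjusted p = 0.00138) and -0.26 between F1 and LW (adjusted p = 0.0421). The entry in capitals, SLC19A1, was called in neither, with -0.14 and -0.0 (adjusted p = 0.175 and 0.981).

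Probes of 1 name did not always move together. Of the 70 carriers with 2 or more measured probes, all probes had the same direction in 45 between HS and TN and in 42 between CR and LW. Among those called, this held for 1 of 1 and 16 of 17. Several names have probes of identical or overlapping sequence, among them SLC26A6, SLC35B2, SLC44A2 and SLC7A2. Agreement of such probes is no independent support. SLC7A7, the carrier called between HS and TN, had probes at 0.21, 0.20, -0.23 and -0.31 between CR and LW (log2 differences), and its mean over probes was not called there.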
